A study of Mus musculus with 6 samples.

Results

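The genes described here are 8 fatty acid desaturases and elongases, found by symbol among the 18422 genes of a deposited read count table of mouse ear skin. They are the desaturase genes Fads1, Fads2, Fads3 and Scd2 and the elongase genes Elovl1, Elovl4, Elovl5 and Elovl7, and all 8 were counted deeply enough to be among the 14866 genes tested. The table holds 6 libraries of poly(A) RNA at postnatal day 21. The labels put 3 libraries in the genotype Control and 3 in the genotype Vegfr2ecko, called ecko here, in which the VEGF receptor gene Vegfr2 (official symbol Kdr) was deleted in endothelial cells. The controls were littermates, and mice of both groups had received tamoxifen, the drug that switches on the deletion, so the groups share that exposure. The Cre driver, the deleted exon and which of the tamoxifen schedules of the series these mice followed are not given in the sources used here. The labels do not say that each library is a separate animal, and p-values therefore speak only of how far these 3 and 3 samples spread, which may be partly technical.

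Desaturases place double bonds into fatty acyl chains, and elongases add carbon pairs to them, both at the endoplasmic reticulum. FADS2 and FADS1 act in turn, with elongation by ELOVL5 between them, to turn the essential dietary fatty acids into long polyunsaturated fatty acids such as arachidonic acid. SCD enzymes make monounsaturated fatty acids for membranes, sebum and stored fat, while ELOVL1 and ELOVL4 build the very long chains of the epidermal ceramides that keep water in the skin.

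Totals ran from 17255419 to 18054700 rounded counts per library. Kdr had 27.4, 29.1 and 33.7 CPM (a count scaled by the size of its library, so that libraries of unlike depth can be compared) in the control libraries and 3.36, 2.05 and 2.35 CPM in the ecko libraries, so the targeted gene followed the labels in all 6. By their Y-linked reads, control 3 and ecko 3 were female and the other 4 libraries male. All listed markers of keratinocytes and fibroblasts were above 0 in every library. None of the 14 marker lists of cell types and handling had a gene at 0 in all 6 libraries. In at least 1 library, 1 of 8 hair follicle and 2 of 6 neutrophil markers were at 0. The summed level of 8 endothelial markers was 317 to 356 CPM in controls and 204 to 207 CPM in ecko libraries, and that of 8 fat cell markers was 408 to 508 and 245 to 327 CPM. In whole skin, fewer cells of a type and less RNA per cell cannot be told apart.

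Of the 8 genes, 1 fell in ecko skin, Fads2, and none rose. The test was the quasi-likelihood test of edgeR, with p-values adjusted by Benjamini-Hochberg over all genes tested and a threshold of 0.05. By it 1.76% of all genes tested were called, 1.08% lower and 0.686% higher. Control and ecko values did not overlap for 4 of the 8, against 21.0% of all genes tested. Fads2 and Fads1 were below their controls, as were 10.8% of all genes tested, and Elovl4 and Elovl7 above, as were 10.2%. Before adjustment, 5 of the 8 and 15.4% of all genes tested had p below 0.05. The median log2 fold change was -0.17 over the 8 genes, with 6 below 0 and 2 above, and 0.00 over all genes tested.

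**Figure D1:**
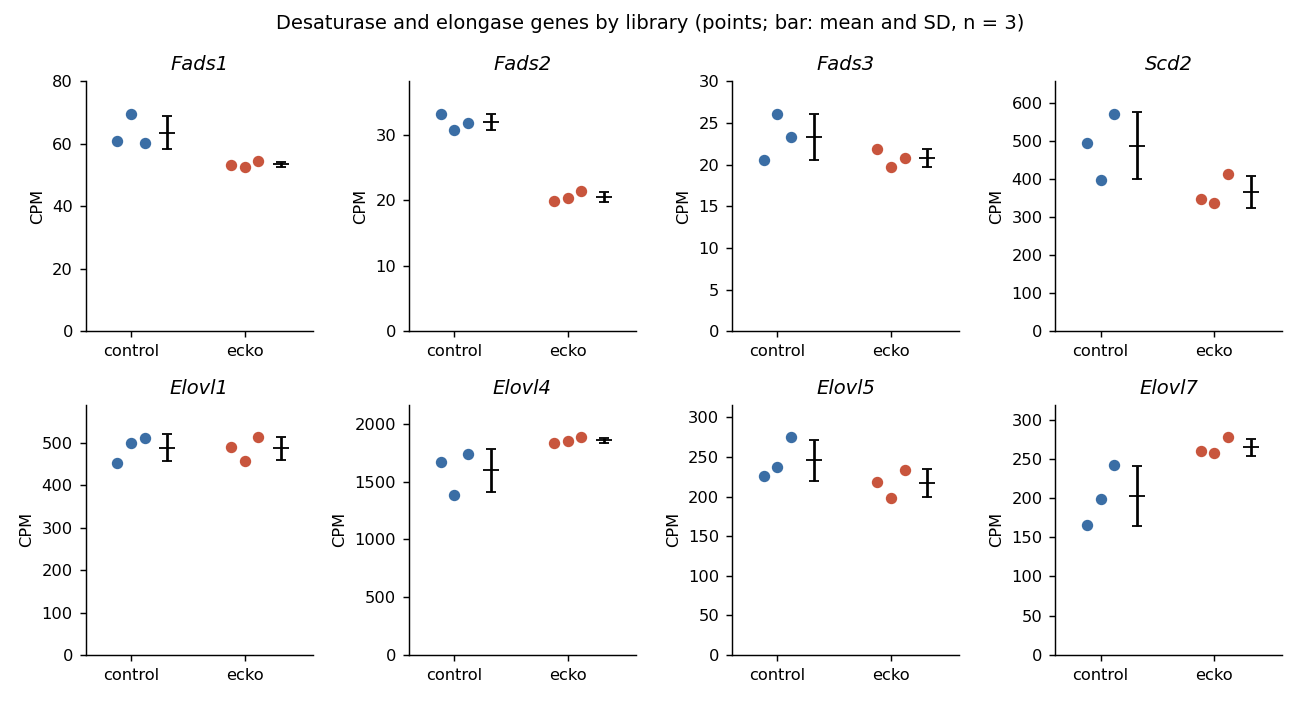
Level of each gene in CPM (vertical axis, starting at 0) in the 3 control and 3 ecko libraries; points are libraries and the bar beside them is the mean with its SD (n = 3). The ecko points of Fads2, at 19.9 to 21.4 CPM, all sit below the control points, at 30.8 to 33.3 CPM, while the points of Elovl1 are mixed.

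The 3 Fads genes lie side by side on chromosome 19 (GRCm38.p6), Fads3 from 10040855 to 10060113, Fads2 from 10062765 to 10101503 and Fads1 from 10182877 to 10196874. To show how far their reads can be told apart, the stretch of 90 coding bases where Fads2 was most like both others together, aligned without gaps and within 1 exon of each gene, is printed below, 5′ to 3′ on the coding strand, from the GENCODE M21 transcripts, with capitals where Fads1 or Fads3 differs from Fads2. It lies in exon 9 of each gene, at chr19:10066259-10066348 on the minus strand for Fads2, and on the plus strand at chr19:10193996-10194085 for Fads1 and chr19:10055991-10056080 for Fads3.
Fads2: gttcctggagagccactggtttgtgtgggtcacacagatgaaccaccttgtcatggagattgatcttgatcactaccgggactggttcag
Fads1: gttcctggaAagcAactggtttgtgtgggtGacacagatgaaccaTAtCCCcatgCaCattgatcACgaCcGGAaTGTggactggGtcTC
Fads3: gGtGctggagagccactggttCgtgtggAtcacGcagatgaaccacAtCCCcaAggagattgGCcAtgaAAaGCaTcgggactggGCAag
In this stretch Fads1 differed from Fads2 at 22 bases and Fads3 at 21. Over their whole coding sequences Fads2 was 67.8% identical to Fads1 and 71.1% to Fads3, and no run of more than 54 bases was shared with Fads3 or of more than 17 with Fads1. The deposited counts of the 3 genes were whole numbers in all 6 libraries.

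Fads2, the desaturase of the first step in making long polyunsaturated fatty acids, fell in ecko skin. It had 33.3, 30.8 and 31.8 CPM in the control libraries and 19.9, 20.3 and 21.4 CPM in the ecko libraries. The highest ecko library was below the lowest control, and both groups were tight. The mean went from 31.9 ± 1.24 to 20.6 ± 0.771 CPM (SD, n = 3 each), with a log2 fold change of -0.64 and SE of 0.07 (adjusted p = 0.00455, edgeR quasi-likelihood test). Fads2 was called in all 16 alternative settings, with log2 fold changes from -0.67 to -0.60. The largest adjusted p among them was 0.0355, without ecko 2 (edgeR). A threshold of 0.1 on the same fit is counted among the 16, and a call at 0.05 passes it in advance. Within the male libraries alone the log2 fold change was -0.67 (edgeR adjusted p = 0.0259), and the female libraries had 31.8 CPM in the control and 21.4 in the ecko mouse.

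Endothelial and fat cell markers moved beside Fads2. Of 8 endothelial markers 7 fell (median log2 fold change -0.71), and of 8 fat cell markers 3 fell (median -0.65). The summed level of 8 sebaceous gland markers, at 1593 to 1976 CPM in controls and 1783 to 1895 in ecko libraries, overlapped between groups, and 1 of them rose. Skeletal muscle markers summed to 6358 to 9378 CPM in controls and 5377 to 6014 in ecko libraries, with 1 of 8 lower. Macrophage markers, none of 6 called, summed to 440.1 to 704.4 CPM in controls and 704.7 to 714.9 in ecko libraries. Immediate early genes, which respond to handling, summed to 405 to 607 CPM in controls and 565 to 1235 in ecko libraries, with ecko 1 the highest and 1 of 8 called higher. Neutrophil markers summed to 22.7 to 39.1 CPM in controls and to 101, 169 and 29.7 CPM in ecko 1, 2 and 3, and none of 4 tested was called. Red blood cell markers summed to 1130 to 2412 CPM in controls and 763 to 1377 in ecko libraries. Cartilage markers summed to 856 to 1212 and 816 to 857 CPM, and no gene of these lists was called. The part of any of these in the level of Fads2 was not tested.

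Fads1, which acts after Fads2 and one elongation step later, did not pass the test. Its control libraries had 60.8, 69.7 and 60.2 CPM and its ecko libraries 53.1, 52.7 and 54.4 CPM. All ecko values lay below all control values, but control 2 stood well above the other controls. The log2 fold change was -0.25 (SE 0.07, edgeR adjusted p = 0.137). It was -0.18 without control 2 and -0.29 without control 3.

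Fads3, whose product acts on the sphingoid bases of ceramides, had 20.6, 26.1 and 23.4 CPM in controls and 21.9, 19.7 and 20.8 CPM in ecko libraries. The lowest control was below 2 of the ecko libraries, so the groups overlapped (log2 fold change -0.17, SE 0.10, edgeR adjusted p = 0.488). Without control 2 the value was -0.079, and without control 1 it was -0.25.

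Because a ratio of 2 genes in a library does not depend on how libraries are scaled, Fads2 was also set against its neighbours. These ratios, and those of the Scd and elongase genes below, were chosen after the values were seen and are given without a test. Fads2 had 0.547, 0.442 and 0.528 reads for each Fads1 read in controls and 0.375, 0.386 and 0.394 in ecko libraries, a difference of -0.39 in mean log2 ratio. For each Fads3 read there were 1.62, 1.18 and 1.36 Fads2 reads in controls, against 0.910, 1.03 and 1.03 in ecko libraries. In both cases every ecko library was below every control, and leaving out any 1 library kept the Fads2 to Fads1 difference between -0.48 and -0.33.

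**Figure D2:**
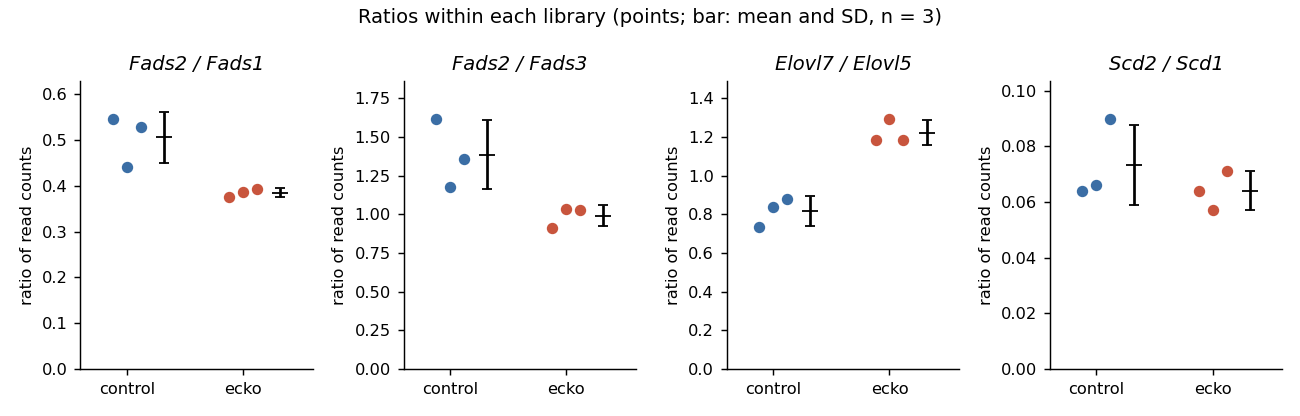
Ratio of the read counts of 2 genes within each library (vertical axis, no unit, starting at 0); points are libraries and the bar is the mean with its SD (n = 3). The ratios of Fads2 to Fads1 and of Fads2 to Fads3 are lower, and that of Elovl7 to Elovl5 higher, in all 3 ecko libraries, while the groups overlap for Scd2 to Scd1.

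Scd2 is 1 of 4 stearoyl-CoA desaturase genes of the mouse, which lie together on chromosome 19 and are alike over much of their coding sequence. Scd2 spans 44293676 to 44306864 there. The following 90 coding bases, picked where Scd2 was most like Scd1 and Scd3 together, show why its count is an estimate. They lie in exon 4 of Scd2 (chr19:44299702-44299791, plus strand) and are the same, base for base, in exon 4 of Scd1 (chr19:44401716-44401805, minus strand) and of Scd3 (chr19:44235864-44235953, plus strand), so that nothing is in capitals.
Scd2: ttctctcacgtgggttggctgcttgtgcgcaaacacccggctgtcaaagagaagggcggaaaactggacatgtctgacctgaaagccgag
The coding sequence of Scd2 was 90.3% identical to that of Scd1, 88.3% to Scd3 and 83.9% to Scd4, and its longest identical run with Scd1 was 147 bases. Of all 50-base windows in the Scd2 transcripts, 3.97% also occurred in transcripts of another gene, and 0.879% of 100-base windows did. For each of the other 7 genes that share was at most 0.152% of 50-base windows. The counts of Scd1, Scd2 and Scd3 were fractional in all 6 libraries.

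Scd2 varied widely among the controls. It had 494, 397 and 573 CPM in controls and 349, 338 and 414 CPM in ecko libraries. Ecko 3 lay above control 2, so the groups overlapped. Its mean went from 488 ± 87.9 to 367 ± 41.2 CPM (SD, n = 3 each), and the log2 fold change of -0.41 (SE 0.13) did not pass (edgeR adjusted p = 0.169). It passed with DESeq2 (adjusted p = 0.0205) and in no other setting. Over all genes DESeq2 called 195 higher and 231 lower, against 102 and 160 in the edgeR test.

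Of the other Scd genes none passed with all 6 libraries. Scd1 is the main desaturase gene of sebaceous glands and fat. It had 7696, 5999 and 6356 CPM in controls and 5436, 5920 and 5847 CPM in ecko libraries, without overlap. Its change was only -0.22 on the log2 scale (SE 0.12, edgeR adjusted p = 0.421), -0.10 without control 1 and -0.29 without control 2. Scd3, a sebaceous gland gene, ranged from 110 to 230 CPM among controls and from 107 to 122 CPM in ecko libraries (log2 fold change -0.56 with SE 0.21, edgeR adjusted p = 0.234). Single controls moved Scd3: it was -0.79 and passed without control 1 (edgeR adjusted p = 0.0167), and was -0.29 without control 3. The ratio of Scd2 to Scd1 reads was 0.064 to 0.090 in controls and 0.057 to 0.071 in ecko libraries, and these ranges overlapped.

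No elongase among the 8 genes passed the test, and 2 of the 4 had all ecko values above all control values. Elovl4 makes the ultra-long acyl chains of epidermal acylceramides and lies on chromosome 9 from 83778692 to 83806305. It had 1670, 1382 and 1738 CPM in controls and 1839, 1854 and 1883 CPM in ecko libraries. The gap between groups, from 1738 to 1839 CPM, was smaller than the range of the controls, and the log2 fold change was 0.22 (SE 0.10, edgeR adjusted p = 0.324). Without control 2 it was 0.12, and without control 3 it was 0.28.

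Elovl7, an elongase of saturated long chains on chromosome 13 from 108214326 to 108287109, had the highest log2 fold change of the 8. Its controls had 166, 199 and 242 CPM and its ecko libraries 259, 257 and 277 CPM. The ecko libraries were close together, while the controls were spread out and the highest of them was the female library. The means were 202 ± 38.4 and 265 ± 10.9 CPM (SD, n = 3 each), with a log2 fold change of 0.39 (SE 0.12) that did not pass (edgeR adjusted p = 0.155). It was 0.54 and passed without control 3 (edgeR adjusted p = 0.0148), and 0.27 without control 1. It passed with DESeq2 (adjusted p = 0.0217), and with a sex term it was 0.40 (edgeR adjusted p = 0.0699). Without control 3 more genes were called in all, 165 higher and 242 lower against 102 and 160, and DESeq2 called more as well.

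Elovl5, the elongase of polyunsaturated chains that works between FADS2 and FADS1, lies on chromosome 9 from 77917365 to 77984519. It had 226, 237 and 275 CPM in controls and 219, 199 and 234 CPM in ecko libraries. Ecko 3 exceeded control 1, and the log2 fold change was -0.18 (SE 0.09, edgeR adjusted p = 0.371). It was -0.092 without control 3 and -0.24 without ecko 3. The Elovl7 to Elovl5 read ratio was 0.733, 0.840 and 0.882 in controls, against 1.187, 1.296 and 1.184 in ecko libraries. Elovl7 was thus counted less than Elovl5 in every control and more in every ecko library, a difference of 0.58 in mean log2 ratio that stayed between 0.50 and 0.64 when any 1 library was left out.

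Elovl1, which builds saturated and monounsaturated very long chains for sphingolipids, lies on chromosome 4 from 118426874 to 118432953. It had 453, 501 and 512 CPM in controls and 491, 458 and 513 CPM in ecko libraries. The values of the groups were mixed, with means of 489 ± 31.6 and 487 ± 27.5 CPM (SD, n = 3 each) and a log2 fold change of 0.00 (SE 0.07, edgeR adjusted p = 0.990). Its exons share 53 bases, 1.94% of their length, with Cdc20 on the opposite strand. No step that marks the strand is named, so reads of the 2 genes may not have been told apart there. The markers of differentiated keratinocytes, the cells that make barrier lipids, summed to 17812 to 19514 CPM in controls and 20437 to 23153 CPM in ecko libraries, and 2 of 7 rose. Their part in the elongase levels was not tested.

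**Figure D3:**
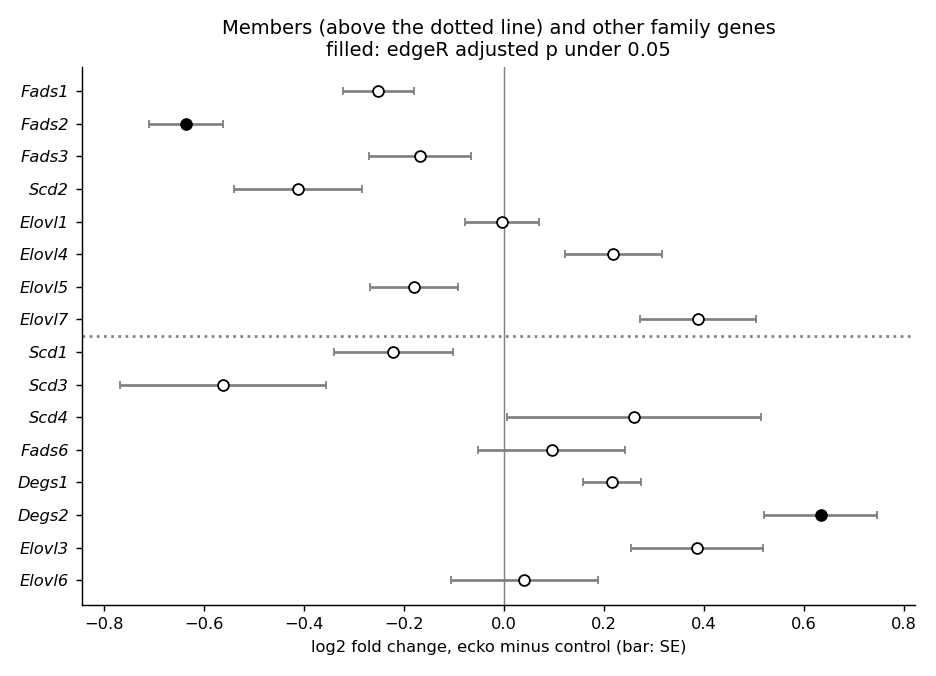
Log2 fold change of ecko against control (horizontal axis; bar: SE) for the 8 genes, above the dotted line, and 8 other desaturase and elongase genes that were tested, below it; filled points passed at an edgeR adjusted p under 0.05. Fads2, at -0.64, and Degs2, at 0.63, are the filled points.

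Levels of different genes were compared per length, as reads per base of the gene's exons, scaled to the same sum in every library as in TPM. On this scale Elovl4 was the highest of the 8 in controls, at 1830 ± 220.1 (SD, n = 3). Elovl1 had 622 ± 47.5, Scd2 309.8 ± 57.6, Elovl5 242 ± 28.1 and Elovl7 175 ± 35.4, followed by Fads1 at 45.8 ± 3.90, Fads2 at 33.6 ± 1.06 and Fads3 at 21.4 ± 2.70. Ranges of neighbours in this order did not overlap in controls, except those of Scd2 and Elovl5. In ecko libraries Elovl7 (229 ± 13.7) stood above Elovl5 (214 ± 20.1) and next to Scd2 (233 ± 30.4), and the ranges of these 3 overlapped. Fads2 (21.6 ± 1.25) had come close to Fads3 (19.0 ± 0.878), though its lowest ecko library (20.5) was still above the highest of Fads3 (19.6). Scd1, at 4733 ± 582.1 in controls, was higher than all 8.

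**Figure D4:**
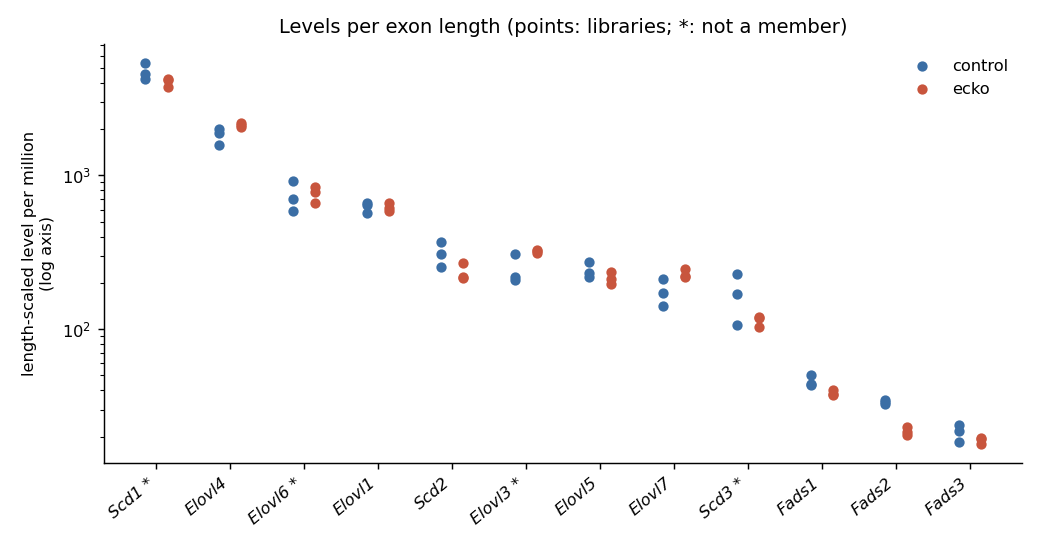
Length-scaled level, in the same unit as TPM (vertical log axis) of the 8 genes and of 4 other family genes marked with an asterisk, in control and ecko libraries (points). The order from Scd1 and Elovl4 at the top to the Fads genes at the bottom was set by the control means, and Fads2 is the member whose groups stand farthest apart.

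The other 9 desaturase and elongase genes of the list gave 1 call among the 8 that were tested, where 1.76% of all genes tested were called. Degs2, which makes the phytoceramides of skin and gut, rose from 6.58, 7.74 and 6.58 CPM to 11.4, 10.96 and 10.1 CPM (log2 fold change 0.63, SE 0.11, edgeR adjusted p = 0.0272). This call ended in 6 of the 16 settings, among them without ecko 1 (edgeR adjusted p = 0.124), without ecko 2 (edgeR adjusted p = 0.119), without ecko 3 (edgeR adjusted p = 0.0586) and without control 1 (edgeR adjusted p = 0.0702). Leaving out an ecko library lowered the number of calls over all genes as well. With all 6 libraries 102 genes were called higher and 160 lower, against 24 and 50 without ecko 1. Without ecko 2 these counts were 22 and 34, and without ecko 3 they were 65 and 67. Exons of Degs2 share 10.8% of their length with Evl on the opposite strand. Degs1, the general ceramide desaturase, had 0.22 (SE 0.06, edgeR adjusted p = 0.119) and passed with DESeq2 (adjusted p = 0.0496). Elovl3, an elongase of sebum and brown fat, had 0.39 (SE 0.13, edgeR adjusted p = 0.202). It was 0.60 and passed without control 1 (edgeR adjusted p = 0.00238), and was 0.28 without control 2. Elovl6, which lengthens the product of fatty acid synthase, had 1366 ± 297 and 1405 ± 152 CPM (SD, n = 3 each; log2 fold change 0.04). Fads6 had 0.10 and Scd4, at about 1 CPM, 0.26, and Elovl2 was counted too little to test.

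The enzymes that feed or serve the 8 genes were counted as well. Of 8 fatty acid synthesis genes 2 fell, 7 had values below 0 and the median was -0.21. Among all genes tested, 1.08% were called lower and 7504 of 14866 had values below 0. Thrsp, a regulator of fat synthesis, went from 28.4, 27.6 and 22.7 CPM to 7.42, 10.8 and 8.83 CPM (log2 fold change -1.54, SE 0.14, edgeR adjusted p = 0.00118). Fasn, the fatty acid synthase gene, went from 584, 502 and 596 CPM to 381, 419 and 409.8 CPM (log2 fold change -0.48, SE 0.08, edgeR adjusted p = 0.0220), a call that ended without any of the ecko libraries (edgeR adjusted p = 0.124, 0.0912 and 0.0800 without ecko 1, 2 and 3), without control 1 (edgeR adjusted p = 0.0521) and in the male libraries alone (edgeR adjusted p = 0.117). None of the 6 other enzymes of the elongation cycle passed, with Hacd4 at 0.24 and Hacd1 at -0.22, nor did any of 6 electron carriers of desaturases, with Cyb5r2 at 0.81 (SE 0.28) from about 1 CPM and Cyb5r1 at -0.17. Of 11 acyl-CoA synthetases and fatty acid transport proteins none passed, with Acsl6 at -0.59 (SE 0.15, edgeR adjusted p = 0.111) and Acsl3 at -0.25.

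SREBP and LXR proteins are among the known transcriptional regulators of Fads and Scd genes. None of 16 regulator genes passed, and 12 of the 16 had values below 0 (median -0.08). Insig1, both a target and an inhibitor of SREBP, had 93.6, 67.9 and 91.7 CPM in controls and 50.9, 63.7 and 63.7 CPM in ecko libraries, a log2 fold change of -0.51 (SE 0.13, edgeR adjusted p = 0.0982), and passed with DESeq2 (adjusted p = 0.00483) and without control 2 (edgeR adjusted p = 0.0276). Srebf1, which encodes SREBP-1, had -0.26 (SE 0.08, edgeR adjusted p = 0.161), and passed without control 2 (edgeR adjusted p = 0.0361). Of 16 sterol-regulated genes none passed and 15 had values below 0, with a median of -0.10. Among all genes tested, 7504 of 14866 had values below 0. Whether these regulators had a part in the levels of the 8 genes was not tested. Over all 125 tested pathway genes other than the 8, 2 rose and 2 fell. By the same test 0.686% of all genes tested rose and 1.08% fell.

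The genes whose pattern over the 6 libraries was most like that of each member were found among 10730 other genes with a mean of at least 10 CPM, by the root mean square difference in log2 CPM centred on the gene mean. For Fads2 the nearest was Vash1, the gene of the angiogenesis inhibitor vasohibin-1, at a difference of 0.0485 where Fads2 itself varied by 0.320. Vash1 had 20.8, 20.8 and 22.1 CPM in controls and 13.3, 13.6 and 14.6 CPM in ecko libraries and fell by 0.61 (SE 0.09, edgeR adjusted p = 0.00941), a call that ended without ecko 1 (edgeR adjusted p = 0.0524) and without ecko 2 (edgeR adjusted p = 0.0663). The next were the endothelial marker gene Emcn and Arap3. For 6 of the other members the nearest gene was Golm1 for Fads1 (0.0192), Tgfb1i1 for Fads3 (0.0326), Gm45927 for Scd2 (0.0814), Msn for Elovl1 (0.0183), Mroh6 for Elovl4 (0.0186) and Pygo1 for Elovl5 (0.0278), and a smaller prior count gave the same genes for these and for Fads2. These are likenesses over 6 libraries in 2 groups, chosen as the closest of many genes.

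**Figure D5:**
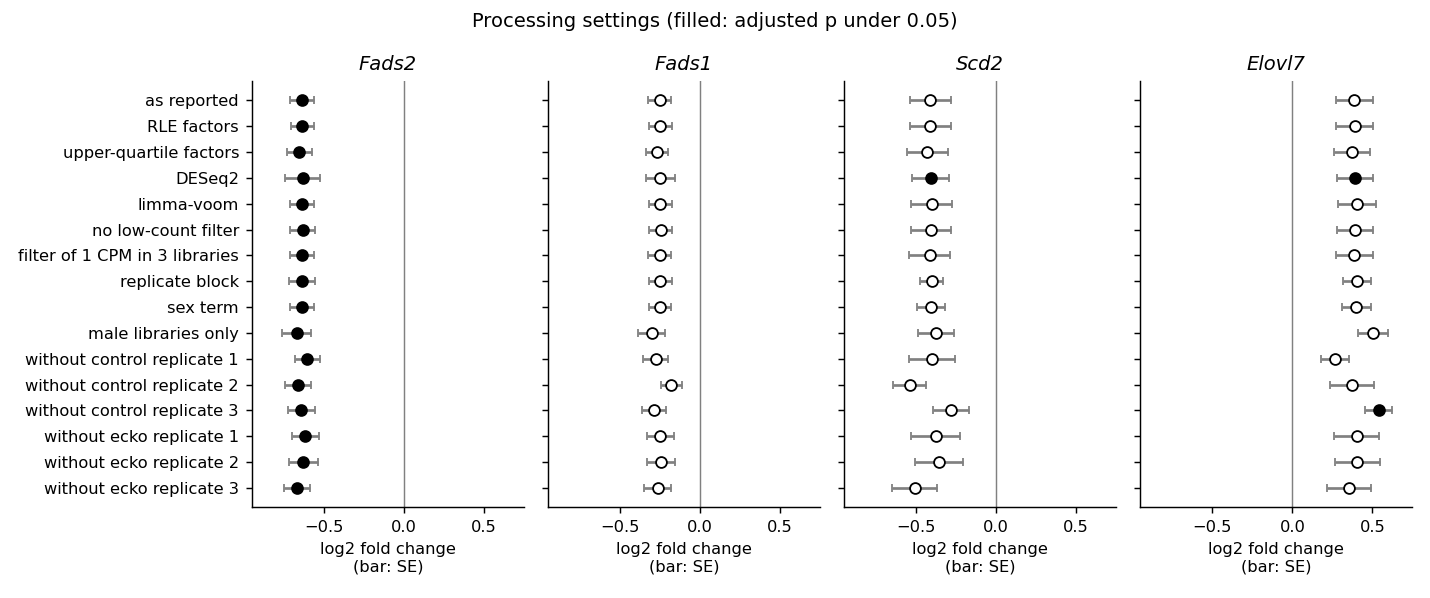
Log2 fold change (horizontal axis; bar: SE) of Fads2, Fads1, Scd2 and Elovl7 as reported and under the alternative settings named at the left; filled points had an adjusted p under 0.05. All points of Fads2 are filled, none of Fads1, 1 of Scd2 and 2 of Elovl7.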

How the data were processed

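Trizol RNA of snap-frozen ear skin was selected for poly(A), fragmented, copied from random primers and sequenced from circular libraries, per the labels' protocols. No step that marks the strand is named. The table deposited by the authors holds expected counts (estimated read counts) per gene, not scaled between libraries, and 10.5% of its values were not whole. RSEM 1.3.1, HISAT2 2.2.1, Bowtie2 2.4.5 and the build GRCm38.p6 are listed without roles, per the submitters' processing notes. The annotation release and read length are not given in the sources used here.

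Counts were rounded, filtered with filterByExpr (minimum count 10; 3556 of 18422 genes removed) and scaled by TMM. The edgeR 4.0.16 quasi-likelihood test (R 4.3.3) was fitted over all 6 libraries with genotype alone and Benjamini-Hochberg adjustment over 14866 genes. The test was first run on simulated counts in which every gene had the same dispersion (relative spread). That run checked the code and does not measure the error of the test on these data. The SE was the log2 fold change over the root of F. CPM used TMM-scaled totals. Pairs of libraries of 1 group had 4.89 to 14.8 times the variance of read sampling alone, so none was 1 library deposited again. Separate preparations of 1 RNA would not be detected this way. Coordinates came from RefSeq (99.7% of identifiers matched), and exon lengths (96.4% of symbols matched), overlaps and coding sequences from GENCODE M21, both on GRCm38. Coding sequences were aligned with Biopython 1.88. Levels per length used the union of a gene's exons.

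Sex was read from Y-linked genes (at least 500 reads taken as male). The members and gene lists were chosen with earlier results of these data known. The genes named were the members, Kdr, the other family genes, the called genes of each pathway list (at least 2 by smallest p) and the nearest pattern of each member, of which a few are not reported here. Alternatives were DESeq2 1.42.0, limma-voom (limma 3.58.1), upper-quartile or RLE scaling, no low-count filter, a block for replicate number, male libraries only, a term for sex, a minimum of 1 CPM in 3 libraries, a threshold of 0.1, leaving out each library, and a prior count of 0.5 in place of 2 for patterns. The ratios were added after seeing the data. Figures used matplotlib 3.10.9.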

Additional observations from a re-analysis of the deposited data

How the results depend on the processing

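Over the 8 genes and 16 settings, 120 of 128 values kept their direction and their side of the threshold, 3 passed only in the alternative (Scd2 with DESeq2, and Elovl7 with DESeq2 and without control 3) and 5, all of Elovl1, changed sign. The threshold of 0.1 reused the same fit, so its values could not change direction. Elovl1 was 1.46e-05 with DESeq2 and 0.0011 with no low-count filter, and -0.051 to 0.039 when libraries were left out in turn. The count of the 8 genes called higher was 0, and 1 with DESeq2, and 0 to 1 with libraries left out. The count called lower was 1, and 2 with DESeq2. Of the other pathway genes, 2 were called higher, against 3 with DESeq2, 1 with the replicate block, 1 in the male libraries and 0 to 2 with libraries left out. The count called lower was 2, against 5 with DESeq2, 1 in the male libraries, 4 at a threshold of 0.1 and 1 to 5 with libraries left out. Leaving out libraries gave -0.018 to 0.24 for Fads6, -0.10 to 0.22 for Elovl6 and -0.033 to 0.058 for Msn. With libraries left out in turn, Hacd1 was -0.32 to -0.14, Cyb5r1 -0.22 to -0.095 and Acaa1a -0.17 to -0.086. Scd4 was 0.15 without ecko 1 and 0.42 without ecko 2. Leaving out ecko 1 or ecko 2 ended the calls of Degs2, Fasn, Vash1 and Pla2g4b, in fits that called fewer genes in all. Their log2 fold changes stayed at 0.59 to 0.72, -0.55 to -0.43, -0.66 to -0.58 and 0.67 to 0.87 with any 1 library left out. DESeq2 and the fit without control 3 called more genes in all than the reported fit. The cause of these changes was not tested.

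The replicate numbers do not show that the samples are paired: deviations from the group means correlated at 0.0530, 0.0479 and 0.172 for numbers 1, 2 and 3, and control 2 was closer to ecko 1 (0.0600) than to ecko 2. Control 3 and ecko 3 were also the only female libraries, so number 3 and sex cannot be told apart. With the replicate block 63 genes were called higher and 129 lower, against 102 and 160 without it. Fads2 passed under the block (edgeR adjusted p = 0.0147), while Scd2 (edgeR adjusted p = 0.0506), Elovl7 (edgeR adjusted p = 0.0818) and Degs2 (edgeR adjusted p = 0.0506) did not. The depth, 344 to 576 counts for Fads2, was enough for its call, and genes as thinly counted as Elovl2 could not be tested.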

Other observations

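Lists of genes that use the products of these enzymes held 1 call, where 1.76% of all genes tested were called. Of 18 genes of very long chain ceramides and barrier lipids none passed, although 14 of them lay above 0 (median of the log2 fold changes, 0.08). Among all genes tested, 7362 of 14866 lay above 0. Cers3, the ceramide synthase that takes ultra-long acyl chains, had 68.7, 80.8 and 80.2 CPM in controls and 96.2, 92.6 and 89.2 CPM in ecko libraries (log2 fold change 0.28, SE 0.07, edgeR adjusted p = 0.115), and the glucosylceramide synthase gene Ugcg had 0.19 (SE 0.06, edgeR adjusted p = 0.187). Both had all ecko values above all control values, as 10.2% of all genes tested did. Of 13 phospholipid remodelling enzymes none passed. Agpat2, which makes phosphatidic acid in fat cells, had 44.0, 42.9 and 51.5 CPM in controls and 33.5, 38.2 and 32.4 CPM in ecko libraries (log2 fold change -0.41, SE 0.09, edgeR adjusted p = 0.0611) and passed with DESeq2 (adjusted p = 0.0132), and Lpcat1 had -0.19. Of 12 peroxisomal and long chain oxidation genes none passed, with the peroxisomal transporter gene Abcd2 at -0.40 (SE 0.12, edgeR adjusted p = 0.147) and Acaa1a at -0.14.

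Of 12 genes that release or convert polyunsaturated fatty acids, 1 rose. Pla2g4b, a cytosolic phospholipase gene, went from 8.95, 10.0 and 11.9 CPM to 18.5, 17.5 and 16.0 CPM (log2 fold change 0.76 with SE 0.12, edgeR adjusted p = 0.0159). The call ended without control 2 (edgeR adjusted p = 0.0622), without ecko 1 (edgeR adjusted p = 0.0824) and without ecko 2 (edgeR adjusted p = 0.0799). Its count is uncertain, since 66.5% of its exon bases belong also to Gm28042 on the same strand and 13.6% to Sptbn5 on the opposite strand. Alox15, a lipoxygenase gene, had 0.52 (SE 0.14, edgeR adjusted p = 0.121) from a level of 3.71 ± 0.409 CPM (SD, n = 3) in controls.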
